A study of Mus musculus with 768 samples.

Results

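Glycolysis was followed in fibroblasts of mouse mammary tumors through 10 genes: the glucose transporter Slc2a1, the hexokinases Hk1 and Hk2, the phosphofructokinases Pfkl and Pfkp, the aldolases Aldoa and Aldoc, and Pgk1, Eno1 and Ldha. The rule named them by symbol and used no measured value, but the 10 genes were chosen with earlier results of these data known. All 10 were found among the 24490 endogenous genes of the deposited tables. The cells were sorted as EpCAM-, CD45-, CD31- and NG2-negative from mammary tumors of 14-week-old FVB/N-Tg(MMTVPyVT)634Mul/J mice, the MMTV-PyMT model, in which a mammary promoter drives the polyoma middle T oncogene, so every cell came from a transgenic tumor and none from normal mammary tissue. Single cells were sequenced by Smart-seq2 in 768 wells on 2 plates, and since each plate held the cells of 1 tumor, tumor and plate cannot be told apart. Replication is by tumor (n = 2), as cells of 1 tumor are not replicates.

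Glycolysis splits glucose into pyruvate in a chain of cytosolic reactions. Slc2a1 (GLUT1) carries glucose into the cell, hexokinase phosphorylates it, phosphofructokinase commits the sugar to the pathway, aldolase cleaves it, phosphoglycerate kinase makes ATP, enolase forms phosphoenolpyruvate, and lactate dehydrogenase turns pyruvate into lactate. Several steps have isozymes from separate genes. Aldoa is the widespread form of aldolase, whereas Aldoc is known from brain, where it marks astrocytes and a subset of Purkinje cells. Hk1 is the housekeeping hexokinase, while Hk2 is inducible and typical of muscle, fat and many tumors. Glycolysis in fibroblasts next to a carcinoma has drawn interest as a possible source of lactate for the tumor cells.

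Of the 768 wells, 727 held at least 10000 endogenous reads (373 of tumor 1 and 354 of tumor 2), with 10281 to 1190516 reads per cell and a median of 207477. Cells were placed in classes by panels of 10 marker genes each, none of them a glycolysis gene. The vascular class, with Rgs5, Notch3 and Des, held 244 non-cycling cells of tumor 1 and 216 of tumor 2, and 23 more cells of each tumor also carried at least 5 cell cycle markers. The matrix class, with Dcn, Lum and Pdgfra, held 80 and 72 cells. The Mia/Scrg1-positive class held 9 and 18 cells. Another 42 cells had no class, and 10 cells lay within 0.05 of the margin that decides on a class. Reads of Mia and Scrg1 together were found in 24 of the 27 Mia/Scrg1-positive cells and in 0 cells outside the class.

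The labelled cell type was checked against markers of other cells. Pecam1 and Cdh5, which mark endothelium, had a read in 0 of 460 non-cycling vascular cells (a count of 0 allows a read in at most 0.652% of cells, which limits detection and not the share of cells that express the gene), and Ptprc (CD45) in 0 of 27 Mia/Scrg1-positive cells (at most 11.1%). The other 3 endothelial genes were Emcn, with a read in 86 of 244 and 111 of 216 vascular cells of tumors 1 and 2, Tie1, with a read in 1 cell of each tumor, and Kdr, with a read in 1 cell of tumor 2. The summed mean level of the immune list reached at most 9.58, that of the erythroid list 0.57 and that of the adipocyte list 0.0175, in RPKM (reads per kilobase of gene model, scaled to the reads of the well). Epithelial genes stood out in 1 class. The mean RPKM of 9 epithelial genes summed to 1170 and 516 in the Mia/Scrg1-positive cells of tumors 1 and 2, against 5.10 to 30.8 in the other classes, and 8 of the 9 genes had a read in each tumor, with Krt19 at 0 in tumor 1 and Krt14 at 0 in tumor 2. In the median of the 9 genes 22.2% of the class's cells had a read in each tumor. By edgeR 0 of the 9 passed the test in both Mia/Scrg1-positive comparisons, where 4.05% and 2.94% of all 11715 tested genes were called higher. At an unadjusted p under 0.05, 5 (against vascular) and 4 (against matrix) were higher, where 3017 and 2996 of all tested genes passed in either direction. DESeq2 called 5 and 3 higher, beside 1039 and 899 of all tested genes. Epcam, the gene of the protein used to sort cells away, had a read in 6 of the 27 Mia/Scrg1-positive cells. It was not confined to them, with a read in 8 of 244 and 19 of 216 non-cycling vascular cells of tumors 1 and 2. In matrix cells it had a read in 7 of 80 and 11 of 72, and in cycling cells in 0 of 23 and 1 of 23. S100b, a gene of glia and Schwann cells, had a mean log2(RPKM + 1) of 5.33 and 6.21 in Mia/Scrg1-positive cells, against 0.0586 to 0.626 in the other classes. In Mia/Scrg1-positive cells S100b had a read in 5 of 9 and 17 of 18. The class is therefore called by its genes here. The part of these markers in the differences given below was not tested, apart from a comparison without the Mia/Scrg1-positive cells that had an Epcam read.

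The aldolases are shown by sequence first, because the largest class difference among the 10 genes was in Aldoc, read beside Aldoa in the same cells. Aldoa lies at chr7:126795234-126800994 and Aldoc at chr11:78323073-78327781 (GRCm38.p6, the assembly of mm10). Their coding sequences were identical at 75.7% of 1089 aligned bases, the longest run they shared was 26 bases, and no stretch of the read length, 43 bases, occurred in both. The lines below give 120 bases from exon 5 of the transcript used for each gene, bases 397 to 516 of the coding sequence counted from the start codon. This stretch was picked as the most alike 120-base window within a single exon, and the 22 bases that differ are in capitals. The Aldoa stretch is chr7:126796619-126796738 on the minus strand and the Aldoc stretch chr11:78325066-78325185 on the plus strand.
Aldoa: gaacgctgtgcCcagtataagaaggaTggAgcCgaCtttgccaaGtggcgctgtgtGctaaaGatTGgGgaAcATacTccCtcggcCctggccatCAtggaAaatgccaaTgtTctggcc
Aldoc: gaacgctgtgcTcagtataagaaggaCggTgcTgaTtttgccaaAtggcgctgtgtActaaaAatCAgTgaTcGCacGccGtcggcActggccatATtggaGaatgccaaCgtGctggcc

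Reads of Aldoc, Hk1 and Hk2 can also be told from those of every other annotated gene, since none of their 43-base stretches occurred elsewhere in the GENCODE vM21 transcripts. The share found in other genes was 0.2% for Pfkl, 2.0% for Slc2a1, 17.2% for Pfkp (all in the overlapping gene Pitrm1), 19.3% for Aldoa and 23.1% for Ldha. For Pgk1 it was 68.1% and for Eno1 74.1%, mostly in Pgk1-rs7 and Eno1b, so the levels of both genes are uncertain. Gapdh, a glycolysis gene of nearly every cell, had a mean of 0.881 RPKM over the kept cells. How reads matching several places were counted is not given in the sources used here, and neither is the use of strand.

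Aldoc set the Mia/Scrg1-positive cells apart from the other classes. The reads of each class were summed within a tumor and scaled to counts-per-million (CPM) with TMM factors. Aldoc reached 3482 and 1216 CPM in the Mia/Scrg1-positive cells of tumors 1 and 2. It stood at 1.72 and 4.39 CPM in non-cycling vascular cells, 0.963 and 2.17 in matrix cells, and 0.162 and 0.339 in cycling vascular cells, so that both libraries of the class lay above the 6 others. The log2 fold change was 9.59 ± 0.90 (SE, edgeR adjusted p = 0.00106, n = 2 tumors) against vascular and 10.56 ± 0.94 (adjusted p = 0.00108) against matrix cells. The size differed between the tumors, with 10.97 in tumor 1 alone and 8.11 in tumor 2 alone against vascular cells.

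The level was uneven from cell to cell. In tumor 1, 7 of 9 Mia/Scrg1-positive cells had an Aldoc read (77.8%, exact 95% binomial interval 40.0 to 97.2%), and the RPKM ran from 0 over a median of 111 to 8777. The highest cell held 60.3% of the class's Aldoc reads in that tumor. In tumor 2, 15 of 18 cells had a read (83.3%, 58.6 to 96.4%), with a median of 338 RPKM, a maximum of 4838 and 29.3% of the reads in the highest cell. Giving every cell the same weight before summing left the log2 fold change at 9.66 (adjusted p = 0.00124) against vascular cells. Intervals cover counting error only, since Smart-seq2 reads carry no molecular identifiers.

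Outside the class Aldoc was rare and low. A read was found in 29 of 460 non-cycling vascular cells, 2 of 46 cycling cells and 10 of 152 matrix cells. With every cell thinned to 50000 reads, which left out shallower cells, the shares were 2.52% and 3.92% of vascular cells and 2.60% and 2.90% of matrix cells in tumors 1 and 2, against 77.8% and 87.5% of Mia/Scrg1-positive cells. An Aldoc level of 100 RPKM or more occurred in 17 of 27 Mia/Scrg1-positive cells, 1 vascular cell, 0 cycling cells and 0 matrix cells. It also occurred in 3 of the 42 cells without a class, 1 of which reached 1027 RPKM.

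Aldoa remained in the same cells. All 27 Mia/Scrg1-positive cells had Aldoa reads, and the class stood at 576 and 554 CPM in tumors 1 and 2, against 568 and 744 in vascular cells, so that the ranges overlapped. The log2 fold change was -0.22 ± 0.25 (SE, edgeR adjusted p = 0.663) against vascular and 0.43 ± 0.25 (adjusted p = 0.341) against matrix cells, neither of which passed the test. Matrix cells had 338 and 498 CPM of Aldoa, below both vascular libraries, with a log2 fold change of -0.65 ± 0.25 (adjusted p = 0.254). Cycling cells had 400 and 386 CPM, and their difference from non-cycling vascular cells, -0.74 ± 0.25, did not pass either (adjusted p = 0.324).

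**Figure D1:**
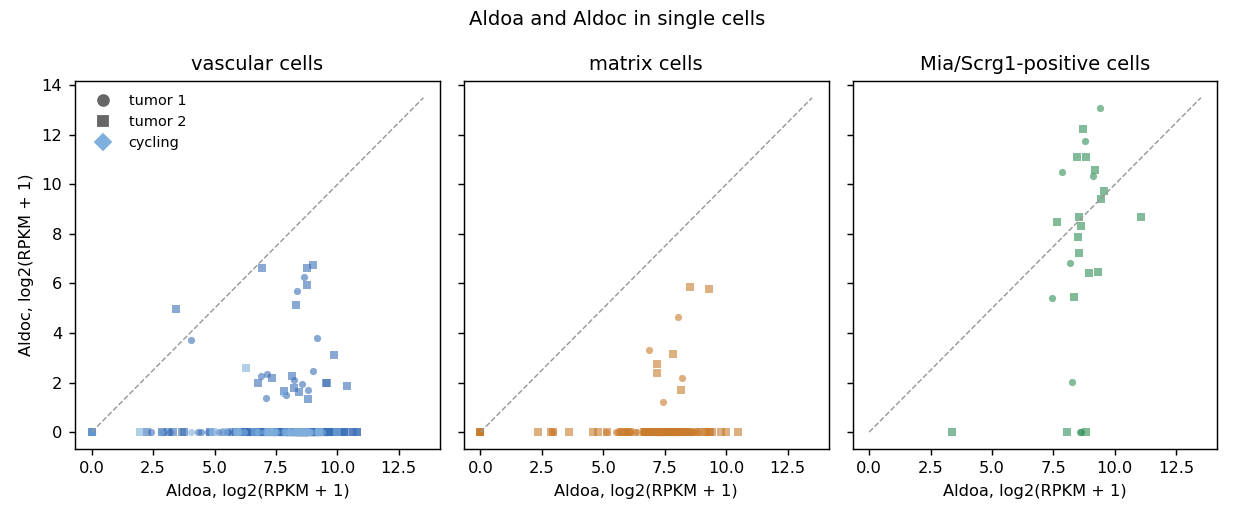
Aldoa (x axis) and Aldoc (y axis) in single cells, each as log2(RPKM + 1), for vascular, matrix and Mia/Scrg1-positive cells; circles are cells of tumor 1, squares cells of tumor 2, light blue marks cycling vascular cells, and the dashed line marks equal levels. Most vascular and matrix cells lie on the x axis with no Aldoc read, while 11 of the 27 Mia/Scrg1-positive cells lie above the line.

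Of the summed aldolase RPKM, Aldoc made up 81.5% in tumor 1 and 60.8% in tumor 2 in Mia/Scrg1-positive cells (71.1% ± 14.6, mean ± SD, n = 2 tumors). The share was 0.207% and 0.489% in vascular, 0.0334% and 0.0847% in cycling and 0.257% and 0.736% in matrix cells. An exact permutation test of 2 tumors against 2 cannot pass a threshold of 0.05, so the shares carry no test. The majority rested on a minority of the cells. Aldoc exceeded Aldoa in 4 of 9 cells of tumor 1 and 7 of 18 of tumor 2, the single-cell share ran from 0 to 92.8% and from 0 to 92.0%, and its mean over cells was 42.9% and 40.0%. Both aldolases were read in 7 and 15 cells, and no cell of the class had Aldoc without Aldoa.

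Of the hexokinases, Hk1 was called, also higher in Mia/Scrg1-positive cells. It stood at 212 and 182 CPM in Mia/Scrg1-positive cells of tumors 1 and 2, at 81.2 and 91.3 in vascular cells, at 87.9 and 87.6 in cycling cells and at 49.7 and 47.8 in matrix cells. The 4 classes formed an order in which only the vascular and cycling libraries overlapped. Hk1 was higher in Mia/Scrg1-positive than in vascular cells by 1.19 ± 0.22 on the log2 scale (SE, edgeR adjusted p = 0.0173) and higher than in matrix cells by 2.01 ± 0.23 (adjusted p = 0.00292). With classes from graph clusters in place of the marker panels, the first of these fell to 0.96 (adjusted p = 0.0817). Matrix cells lay below vascular cells by -0.82 ± 0.22 (adjusted p = 0.0917), which did not pass the test and was -0.053 with ERCC spike-in totals as library size.

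Hk2 was sparse in every class, with its highest levels in matrix cells. It stood at 22.3 and 28.4 CPM in matrix cells, at 0.976 and 5.01 in vascular cells, at 1.62 and 16.1 in cycling cells, and at 0 and 3.34 in Mia/Scrg1-positive cells of tumors 1 and 2. Both matrix libraries were above the other 6, yet the log2 fold change against vascular cells had a wide error, 3.08 ± 1.62 (SE, edgeR adjusted p = 0.457). A Hk2 read occurred in 27 of 80 and 24 of 72 matrix cells against 15 of 244 and 25 of 216 vascular cells. It also occurred in 5 and 8 of 23 cycling cells and in 0 of 9 and 6 of 18 Mia/Scrg1-positive cells, so that the shares of tumor 2 in these classes were close to those of matrix cells. After thinning the shares were 23.4% and 18.8% in matrix, 3.78% and 7.84% in vascular, 0% and 4.55% in cycling and 0% and 12.5% in Mia/Scrg1-positive cells. Of the summed RPKM of Hk1 and Hk2, Hk2 made up 31.4% and 34.1% in matrix cells and 1.21% and 6.62% in vascular cells. The Hk2 share was 1.44% and 12.9% in cycling and 0% and 3.12% in Mia/Scrg1-positive cells. As a mean of single-cell shares it was 20.3% and 28.0% in matrix, 4.71% and 7.30% in vascular, 6.47% and 17.7% in cycling and 0% and 5.98% in Mia/Scrg1-positive cells. A single cell held 40.8% of the Hk2 reads in matrix cells of tumor 2 and 88.4% in cycling cells of tumor 2.

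Of the phosphofructokinases, Pfkl, the liver type, was called by edgeR, against matrix cells alone. It reached 450 and 216 CPM in Mia/Scrg1-positive cells of tumors 1 and 2, against 87.9 and 131 in vascular, 91.6 and 94.6 in cycling and 22.4 and 59.0 in matrix cells. Both Mia/Scrg1-positive libraries were above, and both matrix libraries below, the rest. The log2 fold change against matrix cells was 3.03 ± 0.57 (SE, edgeR adjusted p = 0.0186), while that against vascular cells, 1.60 ± 0.54, did not pass (adjusted p = 0.110), although it did by DESeq2 (1.68, adjusted p = 0.0230). The 2 tumors gave 2.34 and 0.72 for the latter when taken alone. Without the Mia/Scrg1-positive library of tumor 2 it was 2.03 (adjusted p = 0.0427), and without that of tumor 1 it was 0.98 (adjusted p = 0.311). In these fits the class is 1 library, which is assumed to vary like the libraries of the other classes.

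Pfkp, the platelet type, was highest in vascular cells by summed reads, at 195 and 213 CPM. It stood at 183 and 133 CPM in cycling cells, 77.0 and 70.7 in matrix cells, and 123 and 53.9 in Mia/Scrg1-positive cells of tumors 1 and 2. As a mean of log2(RPKM + 1) over cells, vascular and cycling cells overlapped, with 3.77 and 3.97 in vascular and 4.46 and 3.51 in cycling cells. The difference of matrix from vascular cells was -1.47 ± 0.40 (SE, edgeR adjusted p = 0.0923), and that of Mia/Scrg1-positive from vascular cells -1.21 ± 0.40 (adjusted p = 0.107). With ERCC totals as library size they were -0.69 and -0.60. Leaving out the Mia/Scrg1-positive library of tumor 1, which also enters the common estimate of the spread, brought both past the threshold, to -1.48 (adjusted p = 0.0111) and -1.92 (adjusted p = 0.0114). Leaving out that of tumor 2 did so for the first, at -1.48 (adjusted p = 0.0107), and not for the second, at -0.74 (adjusted p = 0.111). Of the summed RPKM of Pfkl and Pfkp, Pfkp made up 22.8% and 26.3% in Mia/Scrg1-positive cells of tumors 1 and 2. In the 6 other libraries it made up 53.7 to 78.7%. Pfkp exceeded Pfkl in 3 of the 27 Mia/Scrg1-positive cells, against 143 of 244 and 120 of 216 vascular cells. A further phosphofructokinase gene, Pfkm, is not part of this share. Its mean log2(RPKM + 1) was 3.67 and 3.29 in Mia/Scrg1-positive, 1.02 and 1.03 in vascular, 0.771 and 1.02 in cycling and 1.41 and 1.38 in matrix cells.

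**Figure D2:**
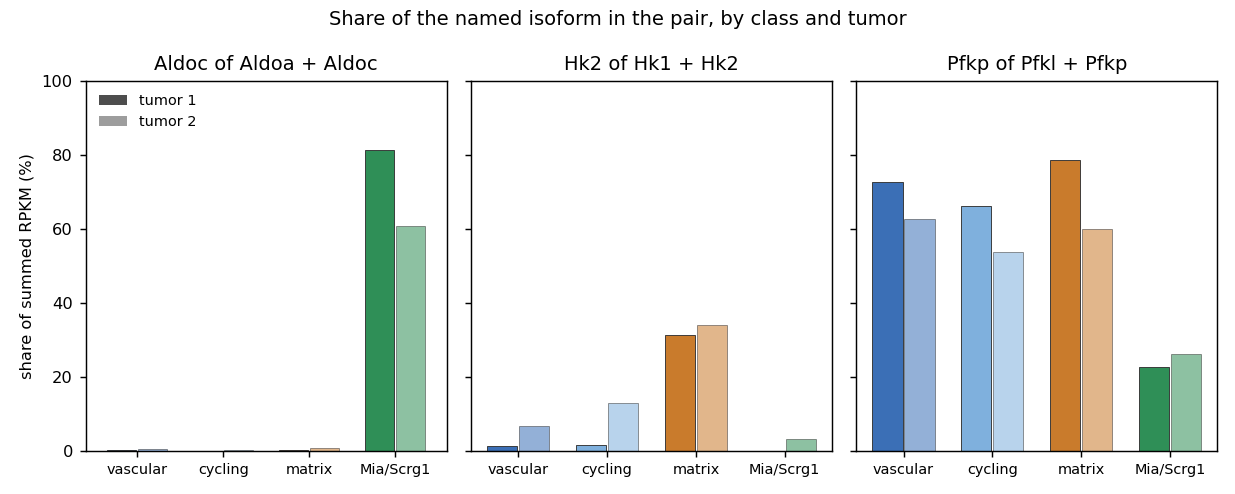
Share of Aldoc, Hk2 and Pfkp in the summed RPKM of their isozyme pair, in percent on the y axis, by class on the x axis, with a dark bar for tumor 1 and a light bar for tumor 2. The Aldoc bars of the Mia/Scrg1-positive class stand at 81.5% and 60.8% beside shares under 1% in the other classes, Hk2 is highest in matrix cells at 31.4% and 34.1%, and Pfkp is lowest in Mia/Scrg1-positive cells at 22.8% and 26.3%.

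None of the transporter and late-step genes passed the test in any comparison. Slc2a1 differed widely between the tumors. It stood at 41.3 CPM in vascular cells of tumor 1 and 132 in those of tumor 2, at 41.0 and 227 in matrix cells, at 31.3 and 40.5 in cycling cells, and at 132 and 19.6 in Mia/Scrg1-positive cells, the one class with less in tumor 2. Single cells weighed heavily, as 1 of 216 vascular cells held 28.2% of the Slc2a1 reads of its library with 2459 RPKM. None of the class differences passed the test, and that of Mia/Scrg1-positive from vascular cells was 1.66 in tumor 1 and -2.76 in tumor 2 on the log2 scale. The share of cells with a Slc2a1 read after thinning was 20.6% and 35.8% in vascular and 28.6% and 43.5% in matrix cells of tumors 1 and 2.

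Ldha, which makes lactate, was read in 95.7 to 100% of the cells of every class and tumor. Its CPM was 534 and 663 in vascular, 802 and 608 in cycling, 557 and 723 in matrix and 529 and 753 in Mia/Scrg1-positive cells of tumors 1 and 2, and all 4 classes overlapped. The log2 fold changes were 0.10 ± 0.28 (SE) for matrix against vascular, 0.10 ± 0.28 for Mia/Scrg1-positive against vascular, 0.24 ± 0.28 for cycling against vascular and 0.00 ± 0.28 for Mia/Scrg1-positive against matrix cells, with edgeR adjusted p-values of 0.860 or more. With ERCC spike-in totals as library size, Ldha differed from vascular cells by 0.86 (matrix), 0.90 (Mia/Scrg1-positive) and 0.96 (cycling). None of these passed the test (edgeR adjusted p of 0.181 or more). With TMM factors Pgk1, at 5.62 to 17.4 CPM, and Eno1, at 0 to 1.86 CPM, gave edgeR adjusted p-values of 0.660 or more in every comparison. Eno1 was at 0 in the Mia/Scrg1-positive cells of tumor 1. Pgk1 and Eno1 both carry the doubt about shared reads given above.

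Levels of different genes were set side by side only per length, as the mean of log2(RPKM + 1) over the cells of a class. Aldoa, with 8.04 and 8.17 in vascular cells of tumors 1 and 2, and Ldha, with 7.60 and 7.77, led in every class, and Aldoc joined them in Mia/Scrg1-positive cells with 6.66 and 7.33. In vascular cells Pfkp followed with 3.77 and 3.97, then Hk1 and Pfkl with 2.03 to 2.75 and Slc2a1 and Pgk1 with 1.19 to 2.00, and the ranges of Hk1 and Pfkl overlapped, as did those of Slc2a1 and Pgk1. Eno1, Hk2 and Aldoc closed the order at 0.107 to 0.843. In Mia/Scrg1-positive cells Hk1, with 4.06 and 5.07, and Pfkl, with 5.48 and 4.11, stood above Pfkp, with 3.00 and 2.35. The median cell had reads of 5 of the 10 genes in vascular and matrix cells of both tumors, 6 in cycling cells, and 6 and 7 in Mia/Scrg1-positive cells.

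**Figure D3:**
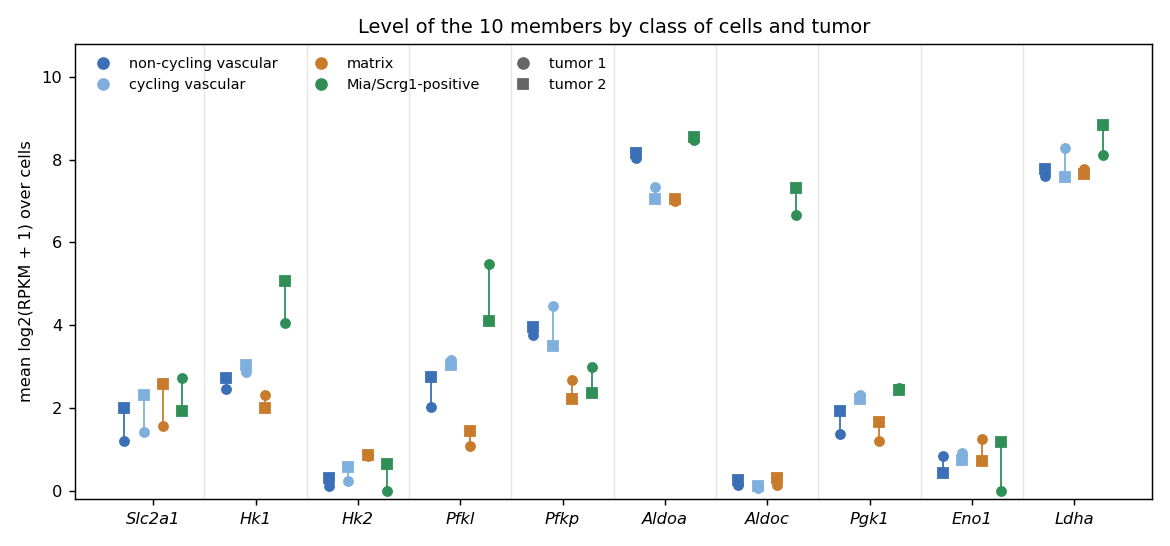
Level of each of the 10 genes, as mean log2(RPKM + 1) over cells on the y axis, for non-cycling vascular, cycling vascular, matrix and Mia/Scrg1-positive cells; circles are tumor 1, squares tumor 2, and the line joins the 2 tumors. Aldoc lies at 6.66 and 7.33 in the Mia/Scrg1-positive class and near 0 in the others, while Ldha lies between 7.59 and 8.84 in all classes.

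Across the 3 comparisons of the classes, the called genes were therefore Aldoc, Hk1 and Pfkl, all higher in Mia/Scrg1-positive cells. Against vascular cells, 2 of the 10 genes were called higher and 0 lower, where 4.05% of the 11715 tested genes were called higher and 7.9% lower. Against matrix cells 3 were called higher and 0 lower, where 2.94% of the tested genes were higher and 7.74% lower. Between matrix and vascular cells edgeR called 0 of the 10, where 3.4% of the tested genes were higher and 2.78% lower in matrix cells. At an unadjusted p under 0.05, 4 of the 10 were lower (Hk1, Pfkl, Pfkp and Aldoa), where 1915 of the 11715 tested genes passed in either direction. DESeq2 called 2 of these 4, Hk1 and Pfkp, with adjusted p-values of 0.00861 and 0.0177, beside 617 of all tested genes lower. In Mia/Scrg1-positive cells, where edgeR called 0 of the 10 lower, 1 of the 10 (Pfkp) was lower at an unadjusted p under 0.05 against vascular and 0 against matrix cells. Of all tested genes 3017 and 2996 passed that threshold in either direction. DESeq2 called 0 of the 10 lower in both comparisons, beside 1454 and 1500 of all tested genes. The median log2 fold change of the 10 genes was -0.36 for matrix against vascular cells (all tested genes -0.02), 0.15 for Mia/Scrg1-positive against vascular (all -0.09) and 0.35 for Mia/Scrg1-positive against matrix cells (all -0.10). All comparisons share libraries, so the 3 sets of values are not independent.

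**Figure D4:**
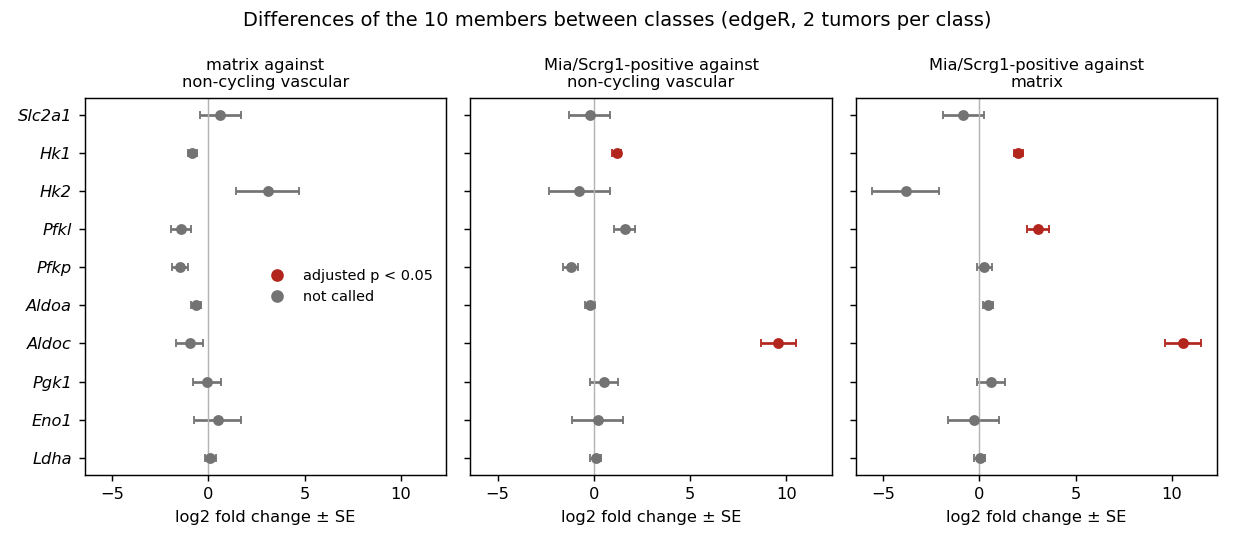
Log2 fold change of each gene (x axis, edgeR, bars are SE, n = 2 tumors per class) for matrix against non-cycling vascular, Mia/Scrg1-positive against non-cycling vascular and Mia/Scrg1-positive against matrix cells; red marks an adjusted p under 0.05. Aldoc lies at 9.59 and 10.56 in the Mia/Scrg1-positive comparisons, Hk1 at 1.19 and 2.01, and no gene is red in the first panel.

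Dividing cells were compared with the other vascular cells, to see whether they carried the level of the vascular class. None of the 10 genes passed the edgeR test (2 had an unadjusted p under 0.05, Aldoa and Aldoc), against 0.188% of the tested genes called higher (22 genes) and 0% called lower in cycling cells. Of all tested genes 1319 had an unadjusted p under 0.05, and DESeq2 called 381 genes higher and 306 lower. The median of the 10 genes was -0.10 (all tested genes -0.03). Aldoc had the largest difference, -3.58 ± 1.07 (SE, adjusted p = 0.250), and DESeq2 called it (adjusted p = 0.0185). It rested on 3 reads, in 1 cell of each tumor, and as a ratio of the summed libraries Aldoc was 11.9-fold lower in cycling cells, with an exact Poisson 95% interval of 4.07 to 57.7 that covers the counting error of those 3 reads. With the tumor as a block, 2 genes in place of 22 were called higher, none of them among the 10.

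Cells of the Mia/Scrg1-positive class with and without an Epcam read were set side by side without a test. The 6 cells with a read had a median of 551 RPKM of Aldoc and a mean log2(RPKM + 1) of 7.14, and the 21 without had 237 RPKM and 7.09. Aldoa stood at a median of 363 and 388 RPKM, and Hk1 at 16.62 and 48.04 RPKM. Leaving the 6 cells out, a comparison added after the data were seen, gave a log2 fold change of 9.75 for Aldoc (edgeR adjusted p = 0.00193) and 1.32 for Hk1 (adjusted p = 0.0155) against vascular cells, and the same numbers of the 10 genes were called. Slc2a1 had a median of 23.4 RPKM with and 0 without an Epcam read, in 4 of 6 and 8 of 21 cells with a Slc2a1 read.

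Other genes of the pathway came from a list of 23, of which 14 reached the minimum mean of 1 RPKM. In matrix against vascular cells edgeR and DESeq2 each called 1 higher and 2 lower. Of all 11715 tested genes edgeR called 3.4% higher and 2.78% lower, and DESeq2 called 825 and 617. Bpgm, which makes 2,3-bisphosphoglycerate, had 273 and 322 CPM in matrix against 60.5 and 76.5 in vascular cells (log2 fold change 2.12 ± 0.37, SE, edgeR adjusted p = 0.0222). The insulin-responsive transporter Slc2a4 (GLUT4) had 1.55 and 0.136 against 71.1 and 51.3 CPM (-6.14 ± 1.20, adjusted p = 0.0300). Ldhb, the lactate dehydrogenase subunit common in heart, had 17.5 and 15.2 against 51.8 and 68.5 CPM (-1.88 ± 0.37, adjusted p = 0.0302). The median of the 14 genes was -0.08, against -0.02 over all tested genes.

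In Mia/Scrg1-positive cells the same list held 2 genes lower than in vascular cells and 0 higher by edgeR, where 7.9% and 4.05% of all tested genes were called. At an unadjusted p under 0.05, 4 were lower and 1 higher, where 3017 of all 11715 tested genes passed in either direction. DESeq2 called the same numbers, beside 1454 of all tested genes lower and 1039 higher. Against matrix cells edgeR called 2 lower and 1 higher, where 7.74% and 2.94% of all tested genes were called. DESeq2 called 4 lower and 3 higher against matrix cells, beside 1500 and 899 of all tested genes. The high-affinity transporter Slc2a3 (GLUT3) had 0 reads in both tumors, against 26.5 and 85.0 CPM in vascular and 8.18 and 35.9 in matrix cells. With a floor of 3 counts over the class, it was at least 121-fold lower than in vascular cells (edgeR adjusted p = 0.0130) and at least 46.1-fold lower than in matrix cells (adjusted p = 0.0233). Eno2, the neuronal enolase, stood at 0.386 and 0 CPM, a single read, against 31.0 and 66.9 in vascular and 30.4 and 35.7 in matrix cells (edgeR adjusted p = 0.00377 and 0.00564). The ratio was 323-fold lower than in vascular and 222-fold lower than in matrix cells, with exact Poisson 95% intervals for that 1 read of 58.0 to 12760 and 39.9 to 8778. Ldhb was higher than in matrix cells, at 103 and 73.2 CPM, by 2.43 ± 0.38 on the log2 scale (SE, adjusted p = 0.00901). The medians of the 14 genes were -0.16 against vascular and -0.22 against matrix cells, against -0.09 and -0.10 over all tested genes. In cycling against non-cycling vascular cells edgeR and DESeq2 called 0 of the 14. At an unadjusted p under 0.05, 2 were lower, where 1319 of all tested genes passed in either direction.

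Among 15 regulators of glycolysis, 13 were tested. Epas1, which encodes the hypoxia-inducible factor HIF-2 alpha, was the only one that edgeR called against vascular cells, lower in both classes, where 2.78% (matrix) and 7.9% (Mia/Scrg1-positive) of all tested genes were called lower. DESeq2 also called Pfkfb3 lower in matrix cells, where 4 of the 13 were lower at an unadjusted p under 0.05. Of all 11715 tested genes, DESeq2 called 617 lower in matrix cells, and 1915 had such an unadjusted p in either direction. Epas1 had 1405 and 1304 CPM in vascular cells of tumors 1 and 2, 98.5 and 85.5 in matrix cells and 70.5 and 99.2 in Mia/Scrg1-positive cells. The log2 fold change was -3.88 ± 0.26 (SE, edgeR adjusted p = 0.000595) in matrix and -3.99 ± 0.26 (adjusted p = 0.000234) in Mia/Scrg1-positive cells. Pdhb, a subunit of pyruvate dehydrogenase, was higher in Mia/Scrg1-positive than in matrix cells, with 150 and 96.8 against 44.6 and 41.7 CPM (1.52 ± 0.34, adjusted p = 0.0354), where 2.94% of all tested genes were called higher, and DESeq2 called Pfkfb3 higher as well. The medians of the 13 were -0.37 for matrix against vascular, -0.25 for Mia/Scrg1-positive against vascular and 0.19 for Mia/Scrg1-positive against matrix cells, beside -0.02, -0.09 and -0.10 over all tested genes.

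Of 7 pentose phosphate genes, all tested, Taldo1 (transaldolase) was called by edgeR in both Mia/Scrg1-positive comparisons, where 4.05% and 2.94% of all tested genes were called higher. It had 164 and 230 CPM in Mia/Scrg1-positive cells, against 79.2 and 73.0 in vascular (1.37 ± 0.28, SE, edgeR adjusted p = 0.0224) and 69.0 and 50.7 in matrix cells (1.72 ± 0.28, adjusted p = 0.0114). The medians of the 7 were -0.05 for matrix against vascular, 0.13 for Mia/Scrg1-positive against vascular and 0.15 for Mia/Scrg1-positive against matrix cells, beside the all-gene medians of -0.02, -0.09 and -0.10. Of 6 gluconeogenesis genes 4 were tested, with medians of 0.61, 1.14 and 0.54 in the same order, and edgeR called 0 in each comparison. At an unadjusted p under 0.05, 1 was higher in matrix and 2 in Mia/Scrg1-positive against vascular cells, and DESeq2 called the latter 2. Of all 11715 tested genes 1915 and 3017 passed that unadjusted threshold in either direction. DESeq2 called 1039 of them higher in Mia/Scrg1-positive than in vascular cells.

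Hypoxia-responsive genes outside glycolysis were followed by a list of 20, of which 19 were tested. Ndufa4l2, a mitochondrial protein that is strongly induced by HIF, had 315 and 310 CPM in vascular cells, 15.1 and 16.9 in matrix cells and 0.386 and 0.716 in Mia/Scrg1-positive cells. Its log2 fold changes from vascular cells were -4.29 ± 0.25 in matrix (SE, edgeR adjusted p = 0.000532) and -9.05 ± 0.36 in Mia/Scrg1-positive cells (adjusted p = 5.9e-05). The collagen prolyl hydroxylase gene P4ha1 was lower in Mia/Scrg1-positive than in vascular (-1.10 ± 0.28, adjusted p = 0.0457) and matrix cells (-1.28 ± 0.28, adjusted p = 0.0309), and P4ha2 was lower than in matrix cells (-2.29 ± 0.52, adjusted p = 0.0359). Counted by comparison, 1 of 19 was lower in matrix cells, 2 and 3 were lower in Mia/Scrg1-positive cells against vascular and matrix cells, and 0 were higher by edgeR, where 2.78%, 7.9% and 7.74% of all tested genes were called lower. At an unadjusted p under 0.05, 1 was higher in matrix than in vascular cells, 0 in Mia/Scrg1-positive than in vascular cells and 2 in Mia/Scrg1-positive than in matrix cells, of which DESeq2 called 0, 0 and 1. Of all 11715 tested genes 1915, 3017 and 2996 passed that unadjusted threshold in either direction, and DESeq2 called 825, 1039 and 899 higher. The medians of the 19 were -0.05, -0.84 and -0.64, against -0.02, -0.09 and -0.10 over all tested genes. Of 10 genes of the dissociation response, edgeR called 0 in each comparison, with medians of 0.34 for matrix against vascular, -0.85 for Mia/Scrg1-positive against vascular and -0.97 for Mia/Scrg1-positive against matrix cells. The part of these genes in the other differences was not tested. At an unadjusted p under 0.05, 1 was lower in Mia/Scrg1-positive than in vascular and 3 than in matrix cells, and DESeq2 called 1 of the latter. Against matrix cells DESeq2 called 1500 of all tested genes lower.

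HIF binds DNA around a short core that can read ACGTG, so the promoters of the 10 genes were searched for these letters, as a description. RefSeq windows (GRCm38.p6, from 250 bases before to 50 after an annotated start) were read on both strands, where the motif appears as ACGTG or CACGT, and a CACGTG box holds both. At least 1 window held the motif for 7 of the 10 genes and none for Pfkl, Pfkp and Eno1. Among all 32851 windows 19.6% held it, and among all 27025 genes 21.8%. The lines below show 1 match each for both aldolases, for Slc2a1, Pgk1 and Ldha, and for Hk2, with the matched letters in capitals. They lie at chr11:78323090-78323114 (Aldoc, plus strand, 27 bases from the annotated start, negative values lying before it), chr7:126799366-126799390 (Aldoa, minus strand, -126), chr4:119108699-119108723 (Slc2a1, plus strand, -36), chrX:106186940-106186964 (Pgk1, plus strand, -150), chr7:46845746-46845770 (Ldha, plus strand, -48, within CACGTG) and chr6:82774492-82774516 (Hk2, minus strand, -52).
Aldoc: cccagggagtCACGTagctctgcgg
Aldoa: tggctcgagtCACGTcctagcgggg
Slc2a1: cccgccccggACGTGctccccaggc
Pgk1: gtcgtgcaggACGTGacaaatggaa
Ldha: gcccagcctaCACGTgggttcccgc
Hk2: tgagcacatcCACGTcactgtccgg

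A match is not a bound site. Both the aldolase with the class difference and the one without had a match, and Hk1, with the second called difference, had 2, while Pfkl had none.

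Likeness to the 10 genes from cell to cell was ranked over all tested genes, and the 5 most alike are given. Over the 373 and 354 cells of the tumors, the mean of log2(RPKM + 1) of the 10 genes had the highest Pearson r with Pkm, the pyruvate kinase of most tissues (0.395 in tumor 1 and 0.634 in tumor 2), followed by Tpi1 (mean r of 0.461), Cfl1 (0.458), Gpi1 (0.454) and the row Eno1b.1 (0.433). Aldoc alone was most like Extl1 (mean r of 0.741), Plekhd1 (0.738), Plekhb1 (0.711), Scrg1 (0.705) and Sox10 (0.702), of which the last 2 are markers that defined the class. The cells of a tumor share a plate, and depth moved with the common genes. The r with the log10 of a cell's reads was 0.348 and 0.417 for Aldoa and 0.448 and 0.394 for Ldha, but 0.0066 and -0.0057 for Aldoc. These correlations describe the cells and carry no test.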

How the data were processed

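The authors aligned single-end reads of 43 bases to mm10 with STAR, counted them on RefSeq genes and deposited whole-number counts without normalization. They also deposited RPKM values made from the counts with rpkmforgenes, whose totals include the 92 ERCC spike-ins. The plate named in the labels gave the tumor of all 768 wells, and 0 columns were left unused. The sort had excluded doublets, and no doublet caller was run.

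A cell's panel score was the mean log2(RPKM + 1) of its 10 markers divided by the 99th percentile over cells. The class was the highest of the 3 scores where it led by 0.2, with a read of Mia or Scrg1 asked for in the last. Panels came from genes the study names on these cells, so the classes are not independent of the clustering that named them. The 10 genes and all lists were chosen with earlier results of these data known.

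Counts were summed per class and tumor into 8 libraries of 2341448 to 49898470 reads, and the 11715 genes whose mean RPKM was 1 or more were tested in one fit with edgeR 4.0.16 (R 4.3.3, TMM, glmQLFit and glmQLFTest, Benjamini-Hochberg over all tested genes, call at an adjusted p of 0.05), checked on simulated counts. The SE is the fold change divided by the square root of F. All 10 genes are named in each comparison, and from each list the called genes. The classes of 1 tumor share an animal, which pairs the libraries. Their deviations from the class means correlated by 0.107 (vascular and cycling), 0.126 (vascular and matrix), 0.0623 (cycling and matrix), 0.0658, 0.0376 and 0.0171 (vascular, cycling and matrix with Mia/Scrg1-positive). Labels do not say that wells or plates were prepared apart from the tumors. The p-values therefore measure the spread between the 2 libraries of a class, in which tumor, plate and the sampling of few cells cannot be told apart. All classes share the estimate of this spread.

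Median ERCC shares were 14.8% and 12.8% of reads in vascular, 8.43% and 8.45% in cycling, 6.12% and 6.07% in matrix and 14.4% and 5.33% in Mia/Scrg1-positive cells of tumors 1 and 2, and median genes per cell ran from 4017 to 6605.5. Graph clusters were made with scanpy 1.11.5 and leidenalg 0.10.2.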

Additional observations from a re-analysis of the deposited data

How the results depend on the processing

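The higher Aldoc of Mia/Scrg1-positive cells kept its direction and stayed past an adjusted p of 0.05 in every alternative with a test, with log2 fold changes of 8.64 to 10.15 and adjusted p-values of up to 0.00431 against vascular cells, and 9.63 to 11.15 and up to 0.00562 against matrix cells. Hk1 (adjusted p of up to 0.0122) and Pfkl (up to 0.0482) did the same against matrix cells. At an adjusted p of 0.001 none of these passed, leaving 0 of the 10 genes called in both Mia/Scrg1-positive comparisons. A single tumor leaves no spread to test, and in the fits without a Mia/Scrg1-positive library, which are among these alternatives, the lone library of the class is assumed to vary like those of the other classes. Apart from those fits the Aldoc ranges were 9.40 to 10.15 and 9.63 to 10.72. Counting all 10 genes, 656 log2 fold changes were unchanged in direction and call, 51 reversed, 10 gained and 6 lost a call, and 19 single-tumor values moved by more than their error.

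The number of the 10 genes called was 2 with DESeq2 in matrix against vascular cells (0 by edgeR) and 1 with DESeq2 in cycling cells (0). In Mia/Scrg1-positive against vascular cells it was 1 with graph clusters, 3 with DESeq2 and 3 with ERCC totals as library size (2). An adjusted p of 0.001, the study's, left 19 genes higher and 26 lower in matrix cells, 27 and 127 in Mia/Scrg1-positive against vascular cells, 12 and 101 against matrix cells, and 0 higher in cycling cells. DESeq2 called 825 and 617, 1039 and 1454, 899 and 1500, and 381 and 306 genes in the same order. With ERCC totals as library size the counts were 855 higher and 201 lower in matrix cells, 1024 and 569 in Mia/Scrg1-positive against vascular cells, 221 higher against matrix cells, and 60 higher and 1 lower in cycling cells. Graph clusters gave 603 lower (vascular), 528 lower (matrix), and 54 higher and 17 lower in cycling cells. Without a filter on genes 102 were higher and 24 lower in cycling cells.

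Scaling to ERCC totals moved the median of all genes by 0.75 (matrix), 0.67 (Mia/Scrg1-positive) and 0.70 (cycling) against vascular cells on the log2 scale and by -0.12 between Mia/Scrg1-positive and matrix cells. The reversed values under it were no larger than that shift: against vascular cells, Aldoa at 0.11 and Pgk1 at 0.67 in matrix cells, Hk2 at 0.18, Aldoa at 0.52 and Slc2a1 at 0.26 in Mia/Scrg1-positive cells, and Pfkl at 0.50 and Pfkp at 0.36 in cycling cells. Other negative differences in matrix against vascular cells shrank by about the same shift, such as Hk1 to -0.053 and Pfkp to -0.69. Positive ones grew by about as much, Ldha from 0.10 to 0.86, Slc2a1 from 0.63 to 1.37, Hk2 from 3.08 to 3.82 and Eno1 from 0.49 to 1.27. Pfkl of Mia/Scrg1-positive against vascular cells passed the test under it (2.22, adjusted p = 0.0292) and with DESeq2 (1.68, adjusted p = 0.0230).

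With the replicate block, no call among the 10 genes changed. Eno1 turned to -0.063 and Slc2a1 to 0.18 in Mia/Scrg1-positive against vascular cells, Ldha to -0.00097 against matrix cells, and 2 genes in place of 22 were called higher in cycling cells. Giving each cell the same total turned Aldoc in matrix against vascular cells to 0.020, and Aldoa to 0.13, Eno1 to -0.23 and Slc2a1 to 0.47 in Mia/Scrg1-positive against vascular cells. A margin of 0.3 turned Pgk1 in matrix cells to 0.015. Without the cycling matrix and Mia/Scrg1-positive cells, an alternative added after the data were seen, Eno1 turned to -0.32 against vascular cells. Graph clusters turned Hk2 to 0.19 against vascular cells and, in cycling cells, Hk1 to -0.027, Hk2 to -1.74 and Pgk1 to -0.068. Hk1 in cycling cells was also -0.0013 with DESeq2 and with its size factors in edgeR, and -0.0051 without a filter on genes. Ldha of Mia/Scrg1-positive against matrix cells, at 0.00, took a negative sign in 9 alternatives: -0.036 without a filter on genes, -0.029 with filterByExpr, -0.022 with at least 50000 reads, -0.0032 with a quality filter, -0.0018 at a margin of 0.3, -0.042 with graph clusters, -0.074 without cells with an Epcam read, -0.046 without cycling cells, and the block above.

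Leaving out a tumor or, in a comparison added after the data were seen, a single Mia/Scrg1-positive library gave ranges that crossed 0, or lay on the other side of 0 from the value with all libraries, for several genes. In matrix against vascular cells they were -0.44 to 0.079 for Pgk1 and -0.021 to 0.78 for Slc2a1. In Mia/Scrg1-positive against vascular cells they were -0.58 to 0.16 for Hk2, -0.43 to 0.0077 for Aldoa, -0.19 to 0.33 for Ldha and -2.76 to 1.66 for Slc2a1. Against matrix cells they were -0.44 to 0.74 for Pfkp, -0.058 to 1.62 for Pgk1, 0.62 to 0.71 for Eno1, -0.27 to 0.25 for Ldha and -3.54 to 1.68 for Slc2a1. In cycling cells they were -0.059 to 0.10 for Hk1, -0.47 to 0.046 for Pfkl, -0.033 to 0.70 for Pgk1 and -0.13 to 0.57 for Ldha. A value was not given in 8 cases where the remaining library was at 0. Without a single Mia/Scrg1-positive library, 1 to 2 of the 10 genes were called in matrix against vascular cells: Pfkp without either library and Hk1 (adjusted p = 0.0465) without that of tumor 2. The genes called then numbered 677 to 680 higher and 534 to 539 lower in matrix cells, 470 to 745 and 1070 to 1869 in Mia/Scrg1-positive against vascular cells, 392 to 629 and 1059 to 1918 against matrix cells, and 165 to 168 and 50 to 52 in cycling cells. Both larger counts for Mia/Scrg1-positive cells came without tumor 2's library.

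The Aldoc share of the aldolases in Mia/Scrg1-positive cells was 41.5% as a mean of single-cell shares in place of 71.1%. As such a mean it was 0.622% in vascular and 0.161% in cycling cells, and with a margin of 0.1 it was 0.793% in vascular cells. The cause of these changes was not tested. Depth limits the sparse genes: Hk2, Eno1 and Pgk1 had few reads in most cells, and 9 and 18 Mia/Scrg1-positive cells bound every statement on that class.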
